A study of Mus musculus with 12 samples.

Results

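Il1a, Il1b, Il18, Il33 and Il1r2 encode 4 cytokines of the interleukin-1 (IL-1) family and the decoy receptor that binds IL-1. They were followed in a microarray series of mouse skin after wounding, 1 probe set for each gene, chosen by matching the probe sets' RefSeq accessions to the 5 gene names. They are 5 of 909 named genes on a table of 1246 probe sets. The table held 12 samples of total RNA. The non-wounded group had 4 samples, and the wounded groups had 1 (0 h), 2 (30 min), 4 (2 h) and 1 (4 h). The titles give the cells as dendritic epidermal T cells, which live in mouse epidermis, whereas the series' design text describes RNA of whole epidermis, resting and wounded. All 12 titles carry the strain mark B6, which the wounded and non-wounded groups share. The labels used here give no age or sex and do not say whether samples came from separate or pooled mice. P-values therefore reflect only how far these samples spread, and that spread may be technical. Values are RMA values on the log2 scale, so a difference of 1 is a 2-fold change, and they carry no detection call. The number of arrays limits the precision, with a single sample each at 0 h and 4 h.

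IL-1 family cytokines are early signals of injury in skin. IL-1α, IL-33 and the precursor of IL-18 are held ready-made in resting barrier cells and are released or cleaved on damage, which is why IL-1α and IL-33 are called alarmins, whereas IL-1β is mostly made after stimulation and is then cut to its active form by caspase-1. IL-1α and IL-1β signal through the receptor IL1R1 with its partner IL1RAP. The decoy receptor IL1R2 binds them but has no signalling domain, and the antagonist IL-1Ra, encoded by Il1rn, blocks IL1R1. The comparison asked whether the transcripts of the ready-made cytokines and of the inducible Il1b moved in the same way over the first hours.

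The labelled cell type was checked against marker genes before the results. Level here means the log2 of the summed linear values of a list's measured genes. For keratinocytes, the main barrier cells, 4 of 10 markers were measured and their summed level was 11.91 to 13.25 at 2 h, against 12.36 to 13.16 in non-wounded samples. For T cells 5 of 13 were measured, at 6.22 to 7.17 at 2 h and 6.52 to 6.85 in non-wounded samples. Of these, the activating receptor gene Klrk1 averaged 2.38 ± 0.12 (SD, n = 4) and Cd69 2.47 ± 0.17 in non-wounded samples, near the low end of the table. The others were higher, with Itgae at 5.32 ± 0.11, Il2rb at 5.09 ± 0.29 and Il7r at 4.21 ± 0.30. Their median percentiles in non-wounded samples were 65.6, 62.6 and 54.0. The keratinocyte galectin gene Lgals7 averaged 12.08 ± 0.27 there, at the top of the table, so the values go against a pure T cell sample and the samples are called by their time below. In such bulk samples, fewer cells of a type and less RNA per cell cannot be told apart. The 5 samples numbered 1 in their titles, 1 per group, stood apart from the 7 numbered 2 to 4: the SD of their values over probe sets was 1.55 to 1.85, against 2.19 to 2.30. The groups at 0 h and 4 h hold only a sample of this narrower kind, so results are given by number below. The labels used here do not say that samples of the same number were matched, so a pair below means only 2 samples of the same number.

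Il1b and Il1a lie beside each other on chromosome 2, with no protein-coding gene annotated between them, and in the samples at 2 h they differed from the non-wounded samples in opposite directions, neither passing the test. The 250 bases upstream of the start of each in the RefSeq promoter table (GRCm38.p6) are shown for that reason. Capitals mark matches to 3 letter patterns, the TATA box TATAAA (gene strand only), the C/EBP pattern TTNCNNAA and the AP-1 patterns TGACTCA and TGAGTCA (both strands). Both sequences are read 5′ to 3′ on the minus strand.
Il1b, chr2:129371140-129371389: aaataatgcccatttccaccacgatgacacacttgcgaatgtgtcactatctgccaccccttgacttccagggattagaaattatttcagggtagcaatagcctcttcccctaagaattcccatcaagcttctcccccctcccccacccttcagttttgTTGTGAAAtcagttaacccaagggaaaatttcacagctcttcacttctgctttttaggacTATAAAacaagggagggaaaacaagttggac
Il1a, chr2:129309973-129310222: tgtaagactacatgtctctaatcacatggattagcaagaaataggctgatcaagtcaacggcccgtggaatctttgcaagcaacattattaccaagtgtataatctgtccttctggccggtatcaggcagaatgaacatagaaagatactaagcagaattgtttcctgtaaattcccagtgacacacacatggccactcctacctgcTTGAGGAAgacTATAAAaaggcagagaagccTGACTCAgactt
Both windows hold a TATA box, 31 to 26 bases upstream of the start in Il1b and 32 to 27 in Il1a, a pattern found in 7.59% of 32851 windows of the same length. Il1a has an AP-1 pattern 12 to 6 bases upstream of its start (present in 4.46% of windows), and Il1b has none in this window. Each holds 1 C/EBP pattern, which 36.8% of windows hold. The full NF-kB motif, searched on both strands (3.9% of windows), and the CRE pattern TGACGTCA (1.55%) had no match in either window, and none of the marked patterns overlapped another. The windows of Il18 and Il1r2 held none of the 5 motifs, and each of the 2 windows of Il33 held a TATAAA and at least 1 C/EBP pattern. A match is a match of letters only.

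Il1b, the inducible cytokine, was the member with the largest difference at 2 h, and its 2 groups did not overlap. In the samples at 2 h numbered 1 to 4 Il1b was at 4.58, 4.43, 5.86 and 4.99, against 4.08, 3.62, 3.52 and 3.61 in the non-wounded samples of the same numbers. Every sample at 2 h was above every non-wounded sample, which held in this direction for 2.01% of the 1246 probe sets and in the opposite one for 2.73%. The mean was 4.96 ± 0.64 at 2 h and 3.70 ± 0.25 in non-wounded samples (SD, n = 4 each). The difference of 1.26 ± 0.34 (SE), or 2.39-fold, had a 95% interval of 0.50 to 2.02 and did not pass over all probe sets (limma adjusted p = 0.354, and 0.0987 with the replicate number as a block). It passed in 1 alternative fit, with a weight for each array (1.44, limma adjusted p = 0.0123), where 4.82% of all probe sets were called higher. Between the same-numbered samples the difference was 0.51, 0.81, 2.34 and 1.39, so all 4 pairs were higher at 2 h, as were all 4 pairs for 13.4% of probe sets.

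In the samples numbered 2 to 4 alone the Il1b difference was 1.51 (limma adjusted p = 0.074), where 3.05% of probe sets were called. The position of Il1b among the probe sets of its own sample does not depend on the range of that sample. Il1b stood at percentile 57.9, 55.1, 70.5 and 61.3 of the table in the samples at 2 h and at 45.0, 40.2, 40.0 and 44.0 in the non-wounded samples, numbers 1 to 4. The 2 groups did not overlap on this scale either. These are the same samples on another scale, and the share of all probe sets without overlap on it was not counted. At 30 min the value was 5.06 (number 1) and 4.05 (number 2), and the single samples had 3.83 at 0 h and 5.99 at 4 h. The 4 h value is the highest of the 12, at percentile 81.9.

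**Figure D1:**
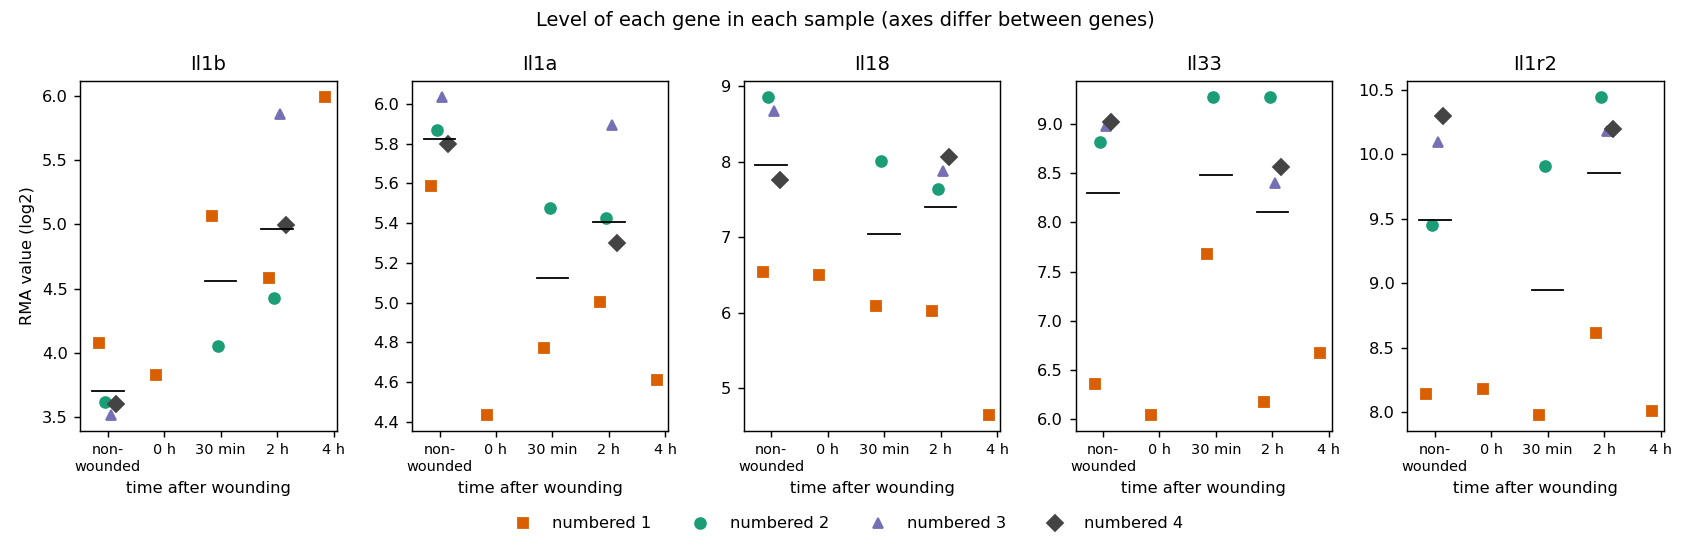
RMA value (log2, y axis, different scale for each gene) of the 5 genes in the 12 samples by time after wounding; each point is a sample, marked by the number in its title, and bars are means of groups with more than 1 sample. Il1b is higher in all 4 samples at 2 h (4.43 to 5.86) than in the non-wounded samples (3.52 to 4.08), and the samples numbered 1 lie lowest for Il18, Il33 and Il1r2 at each time that has others.

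Il1a, the alarmin that signals through the same receptor as Il1b, had lower means after wounding than in non-wounded samples at each time, and did not pass at the times tested. In the samples at 2 h numbered 1 to 4 it was at 5.01, 5.43, 5.90 and 5.30, against 5.59, 5.87, 6.04 and 5.80 in non-wounded samples. The 2 groups overlapped through the 2 h sample numbered 3. The mean was 5.41 ± 0.37 at 2 h and 5.82 ± 0.19 in non-wounded samples (SD, n = 4 each), a difference of -0.41 ± 0.23 (SE; 95% interval -0.94 to 0.11; limma adjusted p = 0.998, and 0.246 with the block). All 4 same-numbered pairs were lower at 2 h (by 0.58, 0.44, 0.14 and 0.50), as were all 4 pairs for 11.6% of probe sets. At 30 min Il1a was at 4.77 and 5.48 in the samples numbered 1 and 2, and the single samples had 4.43 at 0 h and 4.61 at 4 h. These are below the range of the 4 non-wounded samples, 5.59 to 6.04, in all 4 cases. The share of all probe sets of which this held was not counted. The 0 h and 4 h samples and 1 of those at 30 min are numbered 1, the narrower kind. In the wounded samples numbered 1, Il18 also lay below its non-wounded range at every time. The lowest non-wounded Il18 value was itself that of the sample numbered 1, 6.54, and the 0 h sample was barely below it, at 6.50. The share of probe sets was not counted here either.

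Il18, whose precursor keratinocytes make at rest, was lower at 2 h in 3 of 4 pairs. It was at 6.02, 7.64, 7.88 and 8.06 in the samples at 2 h numbered 1 to 4, against 6.54, 8.86, 8.68 and 7.76 in non-wounded samples. The groups overlapped, and the pair numbered 4 was the one higher at 2 h. The difference of the means, 7.40 ± 0.93 at 2 h and 7.96 ± 1.06 in non-wounded samples (SD, n = 4 each), was -0.56 ± 0.65 (SE; 95% interval -2.01 to 0.90; limma adjusted p = 0.998, and 0.318 with the block). Much of this spread separates number 1 from the others, and without the non-wounded sample numbered 1 the difference was -1.03, without the 2 h sample numbered 1 -0.10. At 30 min Il18 was at 6.09 and 8.01 (numbers 1 and 2). The sample at 0 h had 6.50 and the sample at 4 h 4.65, the lowest of the 12.

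Il33, a nuclear alarmin of barrier cells, was not separable at 2 h from its resting level. It was at 6.18, 9.27, 8.40 and 8.56 in the samples at 2 h numbered 1 to 4, against 6.36, 8.82, 8.98 and 9.02 in non-wounded samples. The pair numbered 2 was higher at 2 h and the other 3 were lower. The difference was -0.19 ± 0.79 (SE; 95% interval -1.95 to 1.57; limma adjusted p = 0.998, and 0.779 with the block), and its sign turned without the non-wounded sample numbered 3 or 4 (0.04 and 0.05) or the 2 h sample numbered 1 (0.45). At 30 min Il33 was at 7.68 and 9.27 in the samples numbered 1 and 2, each above the non-wounded sample of its number. The single samples had 6.05 at 0 h and 6.67 at 4 h.

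Il1r2, the decoy receptor, kept a position between percentile 94.5 and 98.7 of its own sample in all 12 samples. It was at 8.61, 10.44, 10.18 and 10.19 in the samples at 2 h numbered 1 to 4, against 8.14, 9.45, 10.09 and 10.29 in non-wounded samples. The groups overlapped, with 3 pairs higher at 2 h and the pair numbered 4 lower. The difference was 0.36 ± 0.61 (SE; 95% interval -0.998 to 1.72; limma adjusted p = 0.998, and 0.486 with the block), and it was -0.09 without the non-wounded sample numbered 1 and 0.78 without the 2 h sample numbered 1. After giving every sample the same median and SD, the difference was 0.53 ± 0.27 (SE; limma adjusted p = 0.956). At 30 min Il1r2 was at 7.98 and 9.91 (numbers 1 and 2), and the single samples had 8.18 at 0 h and 8.01 at 4 h. Neutrophils are a known source of this receptor, and 6 of 11 other neutrophil markers were measured. Their summed level was 6.33 to 6.51 at 2 h, against 6.0 to 6.33 in non-wounded samples, and was 6.24 at 0 h, 6.28 to 6.54 at 30 min and 6.54 at 4 h. All 6 had a higher mean at 2 h, by 0.013 (Cxcr2) to 0.44 (Clec4d), and none passed in limma, blocked or not. The lectin gene Clec4d averaged 3.70 ± 0.42 at 2 h and 3.25 ± 0.41 in non-wounded samples, and the growth factor receptor gene Csf3r 3.23 ± 0.34 at 2 h and 2.86 ± 0.15 in non-wounded samples (SD, n = 4 each). The part of neutrophils in the Il1r2 values was not tested.

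Read together against the table, 0 of the 5 genes passed at 2 h in either fit (block or none). Of all probe sets 0.241% were called higher and 0% lower without the block, and 1.12% and 0.241% with it. At an unadjusted limma p under 0.05, 1 of the 5 (Il1b) passed without the block and 3 (Il1b, Il1a and Il18) passed with it, against 4.65% and 13.8% of all probe sets. The 95% intervals without the block still reach a change of 1 or more in at least 1 direction for Il1b, Il18, Il33 and Il1r2, so differences of that size could not be told from none for the last 3.

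**Figure D2:**
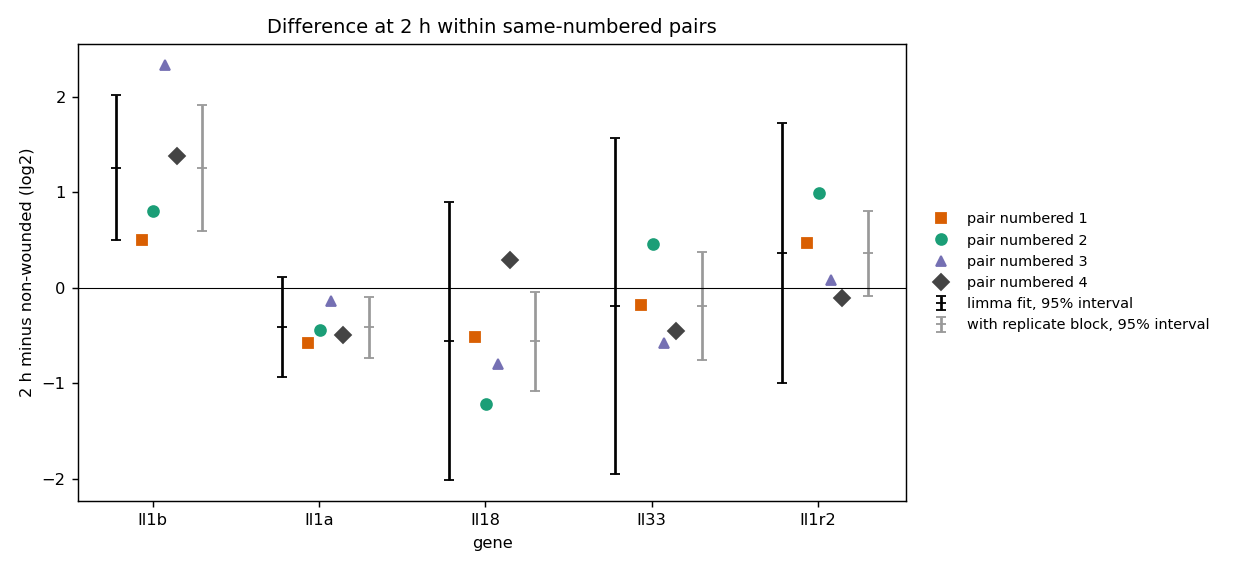
Difference at 2 h minus non-wounded (log2, y axis) for each gene; points are the 4 same-numbered pairs, and bars the limma estimate with its 95% interval, without (black) and with (grey) the replicate number as a block. Il1b is above 0 in all 4 pairs and Il1a below 0 in all 4, while Il18, Il33 and Il1r2 have pairs on both sides.

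To set the inducible cytokine against the ready-made ones directly, the log2 value of each of the 3 was subtracted from that of Il1b within each sample. A shift common to both genes of a sample cancels, but the narrower range of values in the samples numbered 1 does not. Since probe sets differ in brightness, only the change of this quantity between groups is read. Il1b minus Il1a was -0.44 ± 0.40 at 2 h and -2.12 ± 0.43 in non-wounded samples (SD, n = 4 each), so Il1b gained 1.67 ± 0.29 (SE) on Il1a. These samples lay between -1.0 and -0.04 at 2 h and between -2.52 and -1.51 in non-wounded samples, with no overlap (exact permutation test, two-sided, p = 0.0286, the smallest that 4 against 4 samples can give). Adjusted over the 3 pairs of genes compared it was 0.0857 (exact permutation test), so it did not pass that correction. Il1b alone already separated these groups, so this separation in part restates that of Il1b. How many other genes would give it when subtracted from Il1b was not counted. Il1b gained 1.82 ± 0.77 on Il18 (-2.44 ± 0.85 at 2 h and -4.26 ± 1.29 in non-wounded samples; exact permutation p = 0.0857, adjusted 0.129). It gained 1.45 ± 1.04 on Il33 (-3.14 ± 1.39 at 2 h and -4.59 ± 1.54 in non-wounded samples; exact permutation p = 0.2, adjusted 0.2). In both, the groups overlapped through the non-wounded sample numbered 1. In the samples numbered 2 to 4 alone the gain on Il1a was 1.87 (exact permutation p = 0.1, the smallest that 3 against 3 can give).

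**Figure D3:**
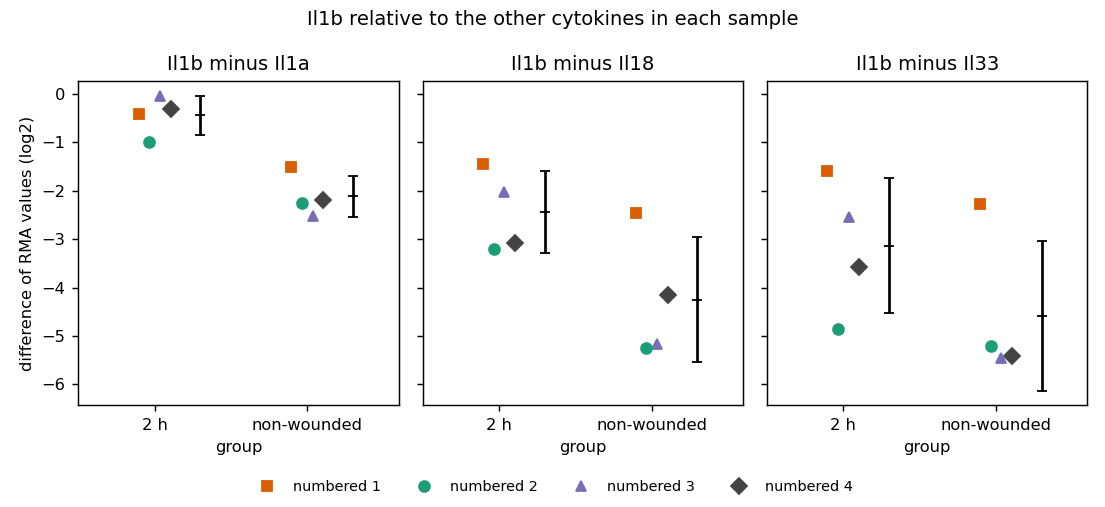
Il1b minus Il1a, Il18 or Il33 (difference of log2 values, y axis) in each sample at 2 h and in each non-wounded sample; points are samples marked by number, bars the mean ± SD of 4. Only for Il1a do the samples at 2 h (-1.0 to -0.04) all lie above the non-wounded samples (-2.52 to -1.51).

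The second comparison set 30 min against non-wounded samples, with 1 sample of each kind at 30 min. At 30 min 0 of the 5 genes passed in limma, blocked or not, and neither did any of the 1246 probe sets (0% called). At an unadjusted limma p under 0.05, 1 of the 5 (Il1a) passed without the block and 2 with it, against 5.06% and 10.9% of probe sets. Il1b was higher by 0.85 ± 0.42 (SE; limma adjusted p = 0.735), with 0.99 and 0.43 in the pairs numbered 1 and 2. Il33 was at 0.18 ± 0.96 (limma adjusted p = 0.948), while both pairs were higher, by 1.32 and 0.45. The sample numbered 1 is 1 of 2 at 30 min and 1 of 4 in the non-wounded group. With the block the Il33 difference was 0.72 (limma adjusted p = 0.458). Il1a was at -0.70 ± 0.29 (limma adjusted p = 0.735; pairs -0.82 and -0.39) and Il18 at -0.91 ± 0.80 (0.753; pairs -0.45 and -0.85). Il1r2 was at -0.55 ± 0.74 (limma adjusted p = 0.795), with pairs of -0.16 and 0.46 and a blocked difference of -0.03. The 2 genes higher in both pairs compare with 23.8% of all probe sets, and the 2 lower in both with 30.8%.

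Between 2 h and 30 min no member passed either (limma, 0% of probe sets called in both fits). An unadjusted limma p under 0.05 was reached by 0 of the 5 without the block and 1 (Il33) with it, against 2.17% and 5.38% of probe sets. Il1b was 0.41 ± 0.42 (SE) higher at 2 h, or 1.04 in the samples numbered 2 to 4 alone, with a single sample at 30 min that is assumed to vary like the others (limma adjusted p = 0.998 there). Il33 was lower at 2 h by this fit, at -0.37 ± 0.96, and at -0.91 with the block (limma adjusted p = 0.726). Il1r2 was at 0.91 ± 0.74, Il1a at 0.28 ± 0.29 and Il18 at 0.35 ± 0.80, each with a limma adjusted p of 0.98. With the block they were at 0.40, 0.14 and -0.06.

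The samples numbered 1 are the one set that covers every time, with a single sample at each and hence no test. Their range of values was narrower at 30 min, 2 h and 4 h than in the non-wounded and 0 h samples, which enters each difference below. Against the non-wounded sample numbered 1, Il1b was at -0.25 (0 h), 0.99 (30 min), 0.51 (2 h) and 1.91 (4 h). At 4 h, 6 of the 1246 probe sets had a larger rise, and 3.29% were higher by 1 or more. Il18 was at -0.04, -0.45, -0.52 and -1.89 at the same times, lowest at 4 h, where 16 probe sets had a larger fall and 8.51% were lower by 1 or more. Il1a was at -1.15, -0.82, -0.58 and -0.98. At 0 h, 3 probe sets had a larger fall than Il1a, 0.562% were lower by 1 or more and 0.321% higher. At 2 h 7.3% of probe sets were lower by 1 or more, none of them a member. Il33 was at -0.32, 1.32, -0.18 and 0.31, highest at 30 min, where 21 probe sets had a larger rise and 5.22% were higher by 1 or more. On the deposited values Il1r2 stayed within 0.5 of the non-wounded sample, at 0.04, -0.16, 0.47 and -0.13. After giving every sample the same median and SD, Il1r2 was at -0.04, 0.40, 1.15 and 0.46, so it was not steady on that scale. In position within the sample, Il18 stood at percentile 83.7 in the non-wounded sample numbered 1 and at 58.4 at 4 h, and Il1a at 73.3 in the non-wounded sample, 54.3 at 0 h and 57.5 at 4 h.

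**Figure D4:**
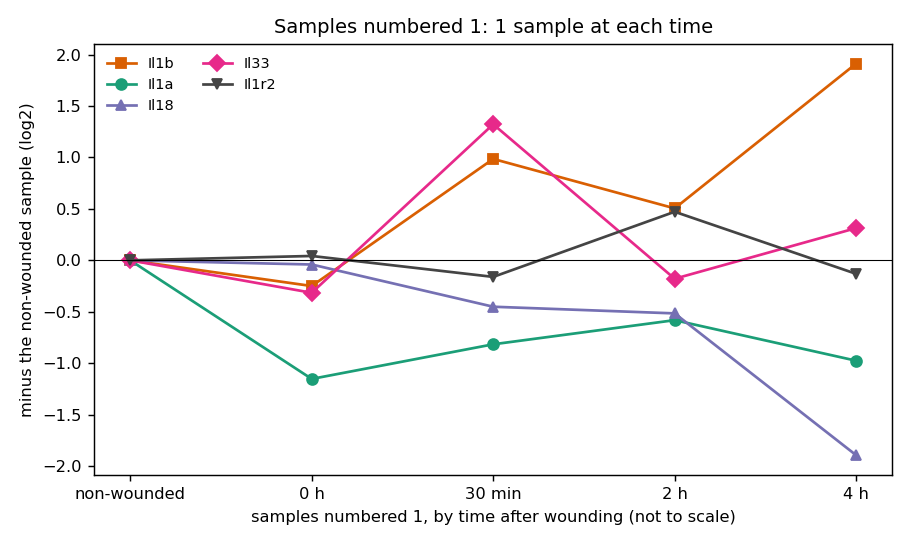
Difference from the non-wounded sample (log2, y axis) in the 5 samples numbered 1, by time after wounding (x axis, not to scale); each point is 1 sample with no replicate. At 4 h Il1b is at 1.91 and Il18 at -1.89, Il33 is highest at 30 min (1.32), and Il1a is lowest at 0 h (-1.15).

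The order of the group means differed between the genes. Il1b ran from 4 h (5.99) over 2 h (4.96), 30 min (4.56) and 0 h (3.83) to non-wounded (3.70). Of these neighbours, 2 h and 30 min overlapped in range, as did 0 h and non-wounded. Il1a ran from non-wounded (5.82) over 2 h (5.41), 30 min (5.12) and 4 h (4.61) to 0 h (4.43). Non-wounded overlapped with 2 h, and 2 h with 30 min. Il18 ran from non-wounded (7.96) over 2 h (7.40), 30 min (7.05) and 0 h (6.50) to 4 h (4.65), Il33 from 30 min (8.48) over non-wounded (8.29), 2 h (8.10) and 4 h (6.67) to 0 h (6.05), and Il1r2 from 2 h (9.86) over non-wounded (9.49), 30 min (8.95) and 0 h (8.18) to 4 h (8.01). For these 3 genes all neighbours overlapped in range but the last pair, which are both single samples. The lone 0 h and 4 h samples belong to the narrower kind, so their places in these orders also carry that difference.

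The genes most like each member were sought over the 7 samples numbered 2 to 4, which share 1 kind of value range, among 267 named genes with an SD of 0.25 or more. The correlations describe these samples only. Each gene named was picked as among the highest of these 267 over only 7 samples. How high such a choice reaches among unrelated genes was not tested. Il1b was most like Has2, which makes hyaluronan (Pearson r = 0.974), the neutrophil chemokine gene Cxcl1 (0.971) and the C-type lectin gene Clec4d (0.968), which is one of the neutrophil markers above. Il18 was most like the receptor gene Notch3 (0.963), the lysosomal galactosidase gene Glb1 (0.954) and the sphingomyelinase gene Smpd1 (0.951). Il1r2 was most like the cytokine receptor gene Csf2rb2 (0.939), Cdv3 (0.907) and Pigp (0.896), and Il1a like the fucosyltransferase gene Fut2 (0.823), Abhd17a (0.815) and Galnt18 (0.797). Il33 had the weakest neighbours, Zkscan3 (0.75), Jag1 (0.746) and Il20ra (0.726). Among the members, Il1b had r = -0.27 with Il1a, -0.47 with Il18, -0.66 with Il33 and 0.35 with Il1r2 over the same 7 samples.

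The rest of the IL-1 pathway was counted from a list of 36 genes, of which 13 were measured, all of them ligands, antagonists or receptors. At 2 h 11 of the 13 were lower and 2 higher, beside 567 of all 1246 probe sets lower. Their median was -0.28, against a median of 0.03 over all probe sets. None of the 13 passed in limma, blocked or not. After giving every sample the same median and SD, all 13 were lower (median -0.31), but so were 789 of all 1246 probe sets (median -0.06). In the samples numbered 2 to 4 alone 10 of 13 were lower (median -0.16), beside 555 of all 1246 probe sets.

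The ligands and antagonists made up the larger differences among these genes. Il1f9, which encodes the IL-36γ cytokine of keratinocytes, averaged 5.13 ± 0.54 at 2 h and 6.02 ± 0.56 in non-wounded samples, at -0.89 ± 0.37 (SE; limma adjusted p = 0.876). In the samples numbered 1 to 4 it was at 5.57, 5.12, 5.46 and 4.37 at 2 h, against 6.49, 5.31, 5.83 and 6.44 in non-wounded samples, lower in each pair with overlap between the groups. The other IL-36 cytokine genes, Il1f8 and Il1f6, were at -0.73 ± 0.47 and -0.35 ± 0.35, and Il1f5, which encodes the IL-36 receptor antagonist, at -0.72 ± 0.63 (each with a limma adjusted p of 0.998). Il1rn was at 5.28, 6.39, 6.27 and 5.99 in the samples at 2 h numbered 1 to 4, against 5.83, 6.55, 6.83 and 7.19 in non-wounded samples. Its difference of -0.62 ± 0.38 (limma adjusted p = 0.998, and 0.17 with the block) was lower in each pair, again with overlapping groups. Il1f10, a family member also called IL-38, was at -0.39 ± 0.27 (limma adjusted p = 0.998). Like Il1f9 and Il1rn, Il1f5 and Il1f10 were lower in all 4 pairs, which held for 11.6% of all probe sets. Il1f8 was higher at 2 h in the pair numbered 2 and Il1f6 in the pair numbered 4. At 4 h the single values were 6.11 for Il1f9 and 4.99 for Il1rn.

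Il1r1, the signalling IL-1 receptor, averaged 5.70 ± 0.46 at 2 h and 5.88 ± 0.29 in non-wounded samples, a difference of -0.18 ± 0.30 (SE; limma adjusted p = 0.998). Both probe sets of its partner Il1rap were lower, at -0.32 and -0.28 (0.998 each). The IL-33 receptor gene Il1rl1 had 2 probe sets that disagreed in sign (0.13 and -0.07). The IL-36 receptor gene Il1rl2 was at -0.13, the IL-18 receptor genes Il18r1 and Il18rap at -0.03 and 0.09, and the accessory protein gene Il1rapl2 at 0.04, each with a limma adjusted p of 0.998. The signs of Il18rap and Il1rapl2 turned after giving every sample the same median and SD (-0.04 and -0.12).

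**Figure D5:**
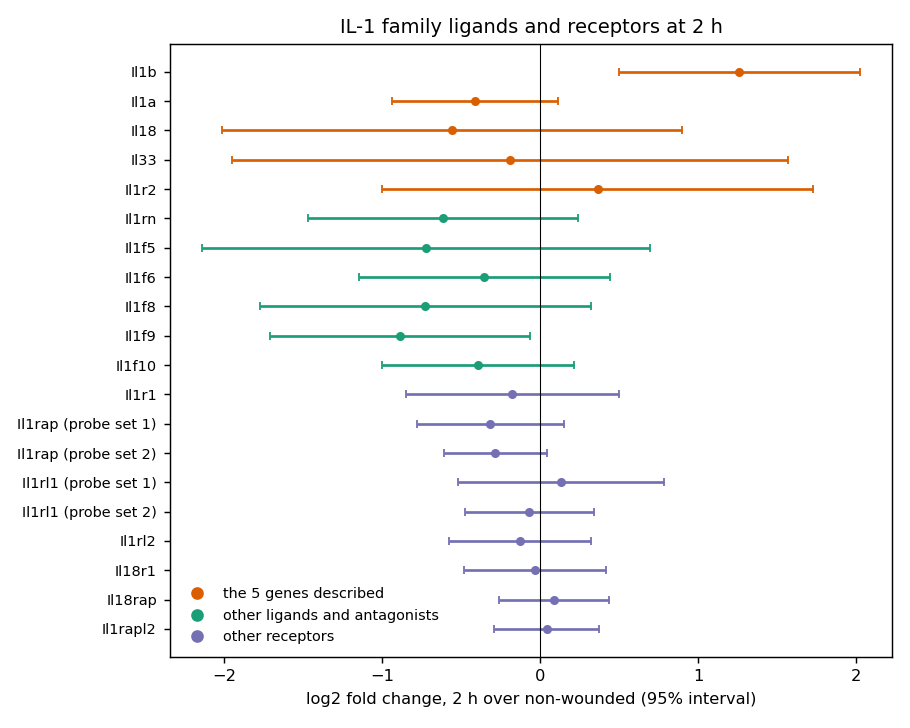
Log2 fold change of 2 h over non-wounded samples with its 95% limma interval (x axis) for the 5 genes (orange), the other ligands and antagonists (green) and the other receptors (purple). Il1b lies furthest to the right at 1.26, and the 6 other ligands and antagonists all lie below 0, down to -0.89 for Il1f9.

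From a list, chosen with results of these data known, of 21 genes that IL-1 is known to induce in skin cells, 12 were measured and 11 were higher at 2 h, beside 679 of all 1246 probe sets, with a median of 0.47, beside 0.03 over all probe sets. Without the block 1 of the 12 passed (0.241% of all probe sets were called higher), the chemokine gene Ccl20 (4.09 ± 0.65 SE, limma adjusted p = 0.0412). With it 4 of the 12 passed (1.12% of all probe sets were called higher), adding the chemokine genes Cxcl2 (3.13, limma adjusted p = 0.0297) and Cxcl1 (2.40, 0.0463) and the adhesion gene Icam1 (2.56, 0.0114). After giving every sample the same median and SD, 10 of the 12 were higher, beside 457 of all 1246 probe sets. Their median was then 0.30, beside -0.06 over all probe sets. Many other signals induce these genes too.

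Markers of other cells that could carry these transcripts were measured beside them. Of 9 Langerhans and dendritic cell markers 4 were measured, with a summed level of 9.97 to 11.47 at 2 h and 10.36 to 11.34 in non-wounded samples. Cd74 had the highest mean of the 4 and so weighs most in that sum, and its difference was -0.11 (limma adjusted p = 0.998). The other 3 were higher at 2 h. Cd83, a marker of mature dendritic cells, averaged 5.64 ± 0.98 at 2 h and 4.14 ± 0.27 in non-wounded samples (SD, n = 4 each), a difference of 1.5, larger than that of Il1b (limma adjusted p = 0.354, and 0.0900 with the block). Cd207, which encodes langerin of Langerhans cells, averaged 8.77 ± 0.74 at 2 h and 7.86 ± 0.63 in non-wounded samples, a difference of 0.91 that passed with the block (limma adjusted p = 0.0448) and not without it (0.998). Ccr7 was at 0.089 (limma adjusted p = 0.998). Of 9 monocyte and macrophage markers 5 were measured (7.12 to 8.07 at 2 h and 7.57 to 8.16 in non-wounded samples). Of 10 fibroblast markers 8 were measured (6.97 to 7.34 and 6.62 to 7.04), of 9 endothelial markers 3 (4.71 to 5.21 and 4.58 to 4.90), and of 6 mast cell markers 2 (4.36 to 4.83 and 4.36 to 4.71), each at 2 h and then in non-wounded samples. At 4 h the neutrophil list was at 6.54, the monocyte and macrophage list at 6.47 and the Langerhans list at 10.18. The part of any of these cells in the Il1b values was not tested.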

How the data were processed

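Per the labels' protocols, Trizol was used for total RNA, which was turned into biotin-labelled cRNA for hybridisation. The deposited values are log2 values from RMA (background correction, normalization and probe set summary), per the submitters' processing notes; the sources used here do not give the array name, versions, batches or filters. Of 1246 probe sets, 963 matched 1 symbol by RefSeq accession (mouse GRCm38.p6 table, used for names), 0 several and 283 none; the last are unnamed.

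Each contrast was read from limma 3.58.1 (R 4.3.3; group means of all 12 samples, Benjamini-Hochberg adjustment over 1246 probe sets, threshold 0.05). Il1b minus another cytokine was compared with exact permutation tests over samples. Samples at 0 h and 4 h were described without a test. The fit was also run on simulated data with known changes and independent noise in each sample, and the outcome is not reported here. Deviations of same-numbered 2 h and non-wounded samples correlated at 0.796, 0.449, 0.651 and 0.297 (numbers 1 to 4, limit 0.1), so blocked values are given. Without the samples numbered 1 the correlations were -0.15, 0.0727 and -0.319, all below that limit, so numbers 2 to 4 did not behave as matched.

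Members, gene lists, markers and tests were chosen with earlier results of these data known. All 5 members were named in full, with every measured ligand or receptor of the pathway list, up to 4 response genes with the smallest p and the 3 most alike genes per member. Alternatives were other normalizations, blocks, weights, priors, filters, thresholds and samples left out. Promoter sequences are from RefSeq; all 5 members matched. Figures used matplotlib 3.10.9.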

Additional observations from a re-analysis of the deposited data

Results flagged for a closer look

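In 5 cases, out of 42 groups of 4 samples examined, the highest or lowest sample lay apart from the other 3 by more than Dixon's 95% limit; chance alone gives about 1 in 20. The 5 cases were Il33 in the non-wounded group, where the sample numbered 1 was at 6.36 and the others between 8.82 and 9.02; Il1r2 at 2 h, where the sample numbered 1 was at 8.61 and the others between 10.18 and 10.44; Il1f5 in the non-wounded group (7.0 in the sample numbered 1, with the highest at 8.70); the leading probe set of Il1rap in the non-wounded group (3.08 in the sample numbered 2, against 3.35 to 3.40); and Il1b minus Il33 in the non-wounded group (-2.28 in the sample numbered 1, with the lowest at -5.46).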

How the results depend on the processing

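The number of probe sets called at 2 h against non-wounded samples was 3, and depended on the processing: it was 17 with the replicate block, 15 with a random replicate block, 38 in the samples numbered 2 to 4 alone, 7 after quantile normalization, 0 with samples centred on their medians, 130 with array weights, 8 with an intensity trend and robust prior and 0 at a threshold of 0.01. Leaving out 1 sample at a time gave 0 to 11 at 2 h, 0 to 74 at 30 min and 0 to 9 between 2 h and 30 min. Between 2 h and 30 min the count was 0, but 1 with a random replicate block, 2 in the samples numbered 2 to 4, 1 with each sample scaled and 2 after quantile normalization. At 30 min it was 0 (63 at an unadjusted limma p under 0.05), and between 2 h and 30 min 27 had such a p.

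Il1b kept its direction at 2 h in all 18 alternatives (0.96 to 1.51, limma adjusted p 0.0123 to 0.9), as did Il1a (-0.58 to -0.28) and Il18 (-1.03 to -0.10). Its gain on Il1a was 1.87 in the samples numbered 2 to 4 (exact p = 0.1) and 1.67 with the replicate block (exact sign-flip p = 0.125); both are the smallest these designs allow. Its gain on Il18 was 1.41 after quantile normalization (exact permutation p = 0.0286). Leaving out 1 sample at a time gave 1.49 to 2.42 (exact permutation p = 0.0286 to 0.171). With the replicate block that gain was 1.82 (exact sign-flip p = 0.125), and with each sample scaled 1.57 (exact permutation p = 0.0857). The block ended no other call of the 5 genes, since none passed without it.

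Signs that turned were of differences that did not pass, and the cause was not tested. Between 2 h and 30 min Il18 was at -0.063 with the block and -0.15 in the samples numbered 2 to 4. With array weights Il33 was at -0.45 at 30 min and 0.34 between 2 h and 30 min. Il1r2 was at 0.020 at 30 min with each sample scaled. At 2 h Il1rl1 was at 0.077 in the samples numbered 2 to 4 and 0.091 with array weights, Il1rl2 at 0.069 with array weights, Il18rap at -0.045 scaled and -0.029 after quantile normalization, and Il1rapl2 at -0.12 scaled, -0.044 after quantile normalization and -0.042 with centred samples. Leaving out 1 sample at a time, the ranges that crossed 0 were, at 2 h, Il1r2 -0.088 to 0.78 and Il33 -0.83 to 0.45; at 30 min, Il18 -1.87 to 0.050, Il1r2 -1.52 to 0.42 and Il33 -0.61 to 0.98; between 2 h and 30 min, Il18 -0.61 to 1.31, Il1a -0.069 to 0.64, Il1b -0.10 to 0.91, Il1r2 -0.056 to 1.88 and Il33 -1.17 to 0.42. A lone sample left in a group was assumed to vary like the others. Scaling each sample moved the median of all probe sets at 30 min by -0.13, to -0.09. Other probe sets of a member were not compared, as each has 1.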
